A study of Mus musculus with 9 samples.

Results

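The regions described here are promoter-like stretches of the mouse genome that carried the silencing mark H3K27me3 in pancreatic cancer cells without Kdm6a and looked active in cells with it. They number 1743, out of 18007 merged H3K4me3 regions on chromosomes 1 to 19. They were chosen by the presence of marks in the region lists. A region was taken when H3K4me3 was listed there in all 3 cell lines, H3K27ac was listed in the WT line, H3K27me3 was not listed in the WT line, and H3K27me3 was listed in at least 1 KO line, each by an overlap of at least 1 bp. Of the 18007 merged regions, 11646 were in all 3 H3K4me3 lists, and 8610 of these had H3K27ac and no H3K27me3 in WT. These 8610 are called eligible regions below, and an eligible region with KO H3K27me3 is said to gain the mark. H3K27me3 was listed in the KO lines at 1743 of them and at none of the other 6867.

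The groups were a female KDM6A-KO line, a male KDM6A-KO line and a male KDM6A-WT line, established from mouse pancreatic cancer on a mixed C57BL/6-SV129 background and grown untreated in F12/DMEM with EGF. Each of H3K4me3, H3K27me3 and H3K27ac was profiled by ChIP-seq with 1 library per line, 9 libraries in all. No WT line was female, so sex and genotype cannot be told apart for the female KO line. Each line is the only one of its sex and genotype. With 1 library per mark and line no test could be run, and all differences below compare libraries.

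Kdm6a is an X-linked gene whose protein, a demethylase, takes methyl groups off lysine 27 of histone H3. The same lysine can carry either methyl groups, placed by the Polycomb enzyme Ezh2 and found at silenced genes, or an acetyl group, found at active promoters and enhancers. A single histone tail cannot hold both, so the finding of both marks at a region means different tails, alleles or cells. H3K4me3 marks promoters, and promoters with H3K4me3 and H3K27me3 together are known as bivalent. Kdm6a also belongs to the complexes of Kmt2c and Kmt2d, which methylate H3K4 at enhancers.

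The H3K27me3 lists differ in the reads they hold, which bears on everything below. H3K27me3 regions of the autosomes held 17976134 reads in female KO and 4804337 in male KO, against 2394056 in the WT list. Over the 101 Mb listed in all 3, H3K27me3 averaged 67.1 reads per kb in female KO and 23.1 in male KO, against 17.6 in the WT library. The KO densities were thus 3.82 and 1.31 times that of WT. Sequencing depth, enrichment and the amount of the mark cannot be told apart in these ratios. A weak mark is more easily listed where reads are denser, so a region absent from the WT list is not shown to lack H3K27me3. Genes are not named, because the gene table used here lies on another assembly than the region lists (mm9), so loss of Kdm6a itself could not be looked up.

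Gains were far more numerous in female KO than in male KO. H3K27me3 was listed at 1715 eligible regions in female KO, which is 19.9% of the 8610 (95% Wilson interval 19.1 to 20.8%). In male KO it was listed at 435, which is 5.05% (4.61 to 5.54%). Both KO lines gained the mark at 407 regions, 4.73% of the eligible regions, and at least 1 line gained it at 20.2%. The 407 regions make up 23.7% of the female KO gains and 93.6% of the male KO gains. The female KO line alone accounted for 1308 regions and the male KO line alone for 28. With both KO lists cut to the WT covered length these were 520 and 110, and 65.4% of the male KO gains were shared with female KO. These counts are what the selection itself fixes, and the intervals cover counting error only.

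The same selection was applied to every ordered pair of lines, to set the gains of the KO lines beside differences that run the other way. Female KO gained the mark over WT at 19.9% of regions, against 56 of the 7655 regions active in female KO, 0.732% (0.564 to 0.949%), where it was in the WT list and absent from the female KO list. Male KO gained it over WT at 5.05%, against 179 of the 9225 regions active in male KO, 1.94% (1.68 to 2.24%), where it was in the WT list and absent from the male KO list. Between the KO lines the counts were about as unequal as between female KO and WT. The female KO list had H3K27me3 at 1651 of the 9225 regions active in male KO, 17.9% (17.1 to 18.7%). The male KO list had it at 52 of the 7655 regions active in female KO, 0.679% (0.518 to 0.890%). These comparisons share libraries. In all 3 pairs the larger count was that of the line with more reads in its H3K27me3 list.

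**Figure D1:**
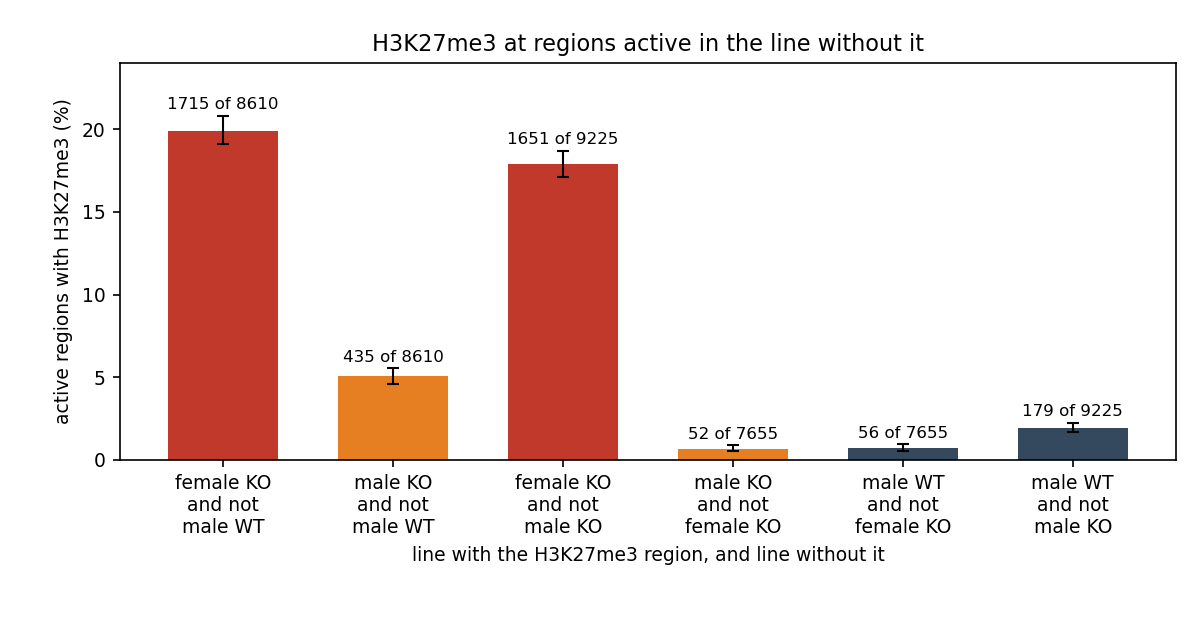
Bars give the share of active regions (H3K4me3 in all 3 lines, H3K27ac and no H3K27me3 in the line without the mark, in percent) that carry H3K27me3 in the other line, with 95% Wilson intervals and the counts above them. The bars for H3K27me3 in female KO stand at 19.9 and 17.9%, the male KO bar against WT at 5.05%, and the other 3 at 0.679 to 1.94%.

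When all 3 H3K27me3 lists were cut to the WT covered length, from the highest reads per kb down, the order of male KO over WT and WT over male KO was kept. The counts were 318 of the 8610 regions active in WT and 248 of the 9436 active in male KO. The female KO list then had H3K27me3 at 728 of the 8610 regions active in WT, and the WT list at 206 of the 8957 active in female KO. The cut also changed how many regions counted as active in the KO lines. This alternative was chosen after seeing the data.

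Most gains were partial and crossed 1 edge of the region. In female KO, H3K27me3 covered a median of 36.0% of a gaining region, or 3.0 kb of a median width of 8.0 kb. In male KO it covered a median of 29.6%, or 2.60 kb of 8.40 kb. The mark reached across a single edge of the region at 1326 of the 1715 female KO gains (77.3%) and at 351 of the 435 male KO gains (80.7%). It covered the whole region at 289 (16.9%) and 38 (8.74%), and lay within the region, touching neither edge, at 49 and 35. At the limit of the selection, 42 female KO and 14 male KO gains rested on the smallest possible overlap of 200 bp, and 210 and 75 gains on less than 1 kb. Just outside it, 35 eligible regions in female KO and 16 in male KO were touched by H3K27me3 at the edge without overlap.

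The H3K27me3 regions behind the gains were wider and denser than their lists as a whole. In female KO 1642 H3K27me3 regions reached a gaining region, with a median width of 15.9 kb and 47.5 reads per kb, against 9.0 kb and 34.7 reads per kb over the whole list. In male KO 442 did so, with medians of 8.50 kb and 19.6 reads per kb, against 5.20 kb and 16.6 reads per kb over the whole list. A wider region meets more promoters, so width is part of what the selection picks. Of these H3K27me3 regions, 581 in female KO (35.4%) and 146 in male KO (33.0%) also overlapped a WT H3K27me3 region elsewhere along their length. Shared domains were few, since 1515 of the 1642 and 433 of the 442 reached only a single gaining region. The most gaining regions under a single H3K27me3 region was 3, beneath a 41.4 kb stretch of the female KO line at chr2:157939801-157981200.

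Within the gaining regions H3K27me3 lay on top of the active marks of the same line more often in female KO than in male KO. H3K27me3 shared 200 bp bins with that line's own H3K4me3 at 1665 female KO gains (97.1%) and at 320 male KO gains (73.6%). At the other male KO gains it met only the part of the merged region that another line's H3K4me3 had contributed. The line's own H3K4me3 also covered more of these regions outside H3K27me3 in female KO, 96.2%, against 67.4% in male KO. Under H3K27me3 it covered 87.5% in female KO and 52.8% in male KO. Of the length under H3K27me3, 72.8% carried H3K27ac in female KO, against 89.5% of the rest of the same regions. In male KO these were 43.4% under H3K27me3 and 73.9% outside it. WT H3K27ac was also sparser in the stretches that gained the mark. It covered 52.6% of the stretches under female KO H3K27me3, against 59.8% of the rest, and 44.7% of the stretches under male KO H3K27me3, against 61.2% of the rest. WT H3K4me3 was lower there too, at 78.5% under female KO H3K27me3, against 81.8% of the rest. Under male KO H3K27me3 it was 72.8%, against 82.6% of the rest.

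Where present, H3K27me3 had a median of 48.1 reads per kb at the female KO gains and 19.7 reads per kb at the male KO gains. Divided by 3.82 and 1.31, the density ratios to WT over the shared bins, these came to 12.6 and 15 reads per kb. The regions of the WT list had a median of 14.8 reads per kb, a 5th percentile of 11.0 and a minimum of 7.67. After scaling, 35.4% of the female KO gains and 51.3% of the male KO gains were at or above the WT median. Gains of both lines were stronger in female KO than those of the female line alone, with 59.1 reads per kb over a median of 52.8% of the region, against 45.7 reads per kb over 32.1%.

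H3K27ac in the KO lines was not used to choose the regions. It was still listed at most of them, but missing more often than at eligible regions without a gain. In female KO H3K27ac was absent from 124 of the 1715 gaining regions, 7.23% (6.10 to 8.55%), against 87 of the 6895 eligible regions that did not gain, 1.26% (1.02 to 1.55%). Over all eligible regions this share was 2.45%. In male KO it was absent from 35 of the 435 gaining regions, 8.05% (5.84 to 11.0%), against 96 of the 8175 others, 1.17% (0.963 to 1.43%). Over all eligible regions this share was 1.52%. With KO H3K27ac lists cut to the WT covered length, H3K27ac was absent from 44.7% of the gaining regions (42.4 to 47.1%) and 27.6% of the others (26.5 to 28.6%) in female KO. In male KO these were 22.1% (18.4 to 26.2%) and 5.72% (5.24 to 6.25%). The intervals of gaining and other regions did not overlap in either line with deposited or cut lists, although regions are not replicates of a line. Both KO lines lacked H3K27ac at 18 of the 407 regions that gained in both (4.42%), against 16 of the 6867 without a gain (0.233%) and 0.581% of all eligible regions.

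H3K27ac was missing mainly where H3K27me3 covered 50% or more of a region. In female KO H3K27ac was listed at 99.6% of the regions with less than 25% under H3K27me3, at 99.2% with 25 to 50%, at 91.5% with 50% or more short of all, and at 69.2% (63.7 to 74.2%) of the 289 regions covered in full. The male KO line gave 97.9, 96.2, 83.5 and 65.8% (49.9 to 78.8%) in the same classes, the last over 38 regions. In female KO, gains covered below 50% were thus close to the 98.7% of eligible regions without a gain. In male KO that share was 98.8%, above the interval at 25 to 50% cover (91.4 to 98.4%). H3K4me3 was lower too at fully covered regions. Its reads relative to WT, as a log2 ratio minus the median over all eligible regions, were -0.87 in female KO and -0.34 in male KO. At regions with less than 25% cover these medians were 0.09 and 0.04. Where H3K27ac was still listed, its log2 ratio to WT on the same footing was -0.62 at fully covered regions of the female KO line and -0.42 at those of the male KO line.

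**Figure D2:**
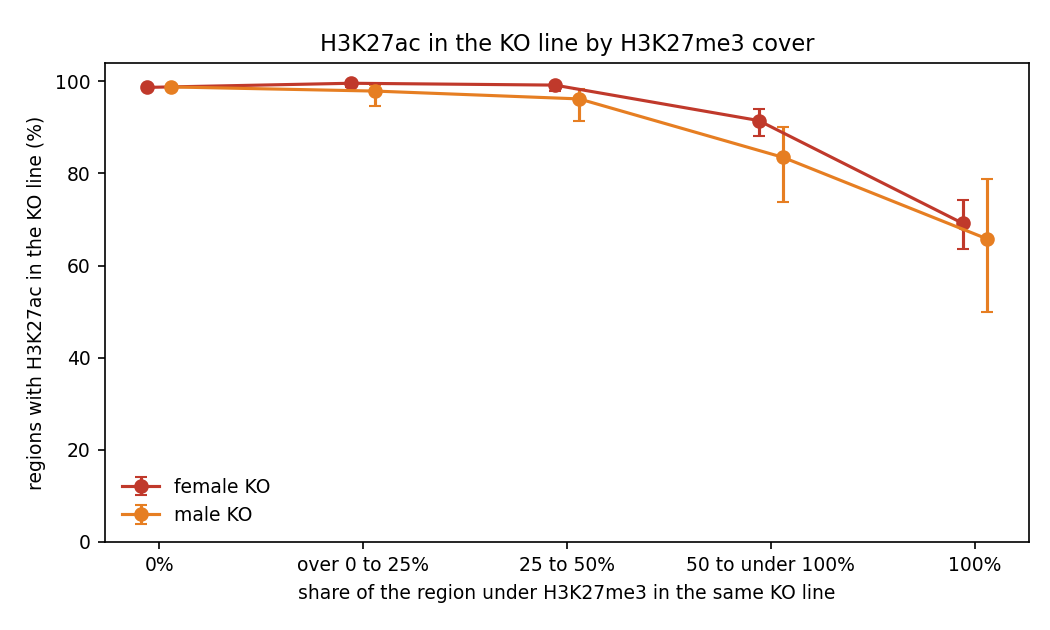
The share of eligible regions with H3K27ac in a KO line (vertical axis, percent, with 95% Wilson intervals) is drawn against the share of the region under H3K27me3 in the same line. Both lines stay above 96% up to a cover of 50% and fall to 69.2% in female KO and 65.8% in male KO at full cover.

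Fully covered regions also differed in other ways, whose part in this was not tested. Their median width was 5.80 kb in female KO and 5.60 kb in male KO, against 7.80 kb for regions without cover. WT H3K27ac had a median of 29.3 and 26.0 reads per kb there, against 37.4 and 37.1 without cover. H3K27ac absence was also counted within classes of each. Among the narrowest, under 6.20 kb, it was absent from 22.2% of the gaining and 4.21% of the other regions in female KO, and from 19.4 and 2.80% in male KO. Among the widest, of 10 kb or more, it was absent from 7 of 471 gaining regions and 0 of 1711 others in female KO, where a count of 0 allows a share of up to 0.175% (3 regions) or, by the Wilson upper limit, 0.224%. In male KO it was absent from 4 of 133 gaining regions and 5 of 2049 others. Where WT H3K27ac was below 30 reads per kb, H3K27ac was absent from 15.5% of the gaining and 4.2% of the other regions in female KO, and from 15.5 and 3.18% in male KO. At 30 to 36.9 reads per kb in WT, the male KO shares were 2.65% (0.907 to 7.52%) and 0.973% (0.631 to 1.5%). At 36.9 to 45.2 they were 2.35% (0.648 to 8.18%) and 0.577% (0.330 to 1.01%), with overlapping intervals in both classes. At 45.2 or more they were 4.76% (1.63 to 13.1%), 3 of 63 regions, and 0.0957% (0.0262 to 0.348%), with intervals apart. In female KO the shares in these classes were 4.49 and 0.754%, 3.82 and 0.226%, and 2.01 and 0.166%. The female KO intervals were apart in each.

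In the lists as deposited, H3K27ac was found far less often at the mirrored regions, where H3K27me3 was in WT and not in a KO line, than at the KO gains. The KO gains had H3K27ac in the same line at 92.8% in female KO and 92.0% in male KO. Of the 179 regions with H3K27me3 in WT and not in male KO, 43.6% (36.5 to 50.9%) had WT H3K27ac, against 89.3% of the other regions active in male KO. Of the 56 with H3K27me3 in WT and not in female KO, 33.9% (22.9 to 47.0%) had it, against 89.6% of the others. The autosomal H3K27ac lists covered 198 Mb in female KO and 145 Mb in male KO, against 109 Mb in WT. With KO H3K27ac lists cut to that length, the share of KO gains with H3K27ac was 55.3% in female KO and 77.9% in male KO. The female KO share then lay much closer to those of the mirrored WT regions.

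Over all gains that kept H3K27ac, its median level was close to that of eligible regions, unlike at the fully covered regions above. The log2 ratio of H3K27ac reads to WT, minus the median over eligible regions, had a median of -0.01 over the 1591 female KO gains with H3K27ac and of -0.06 over the 400 male KO gains with it. The middle 50% of regions lay between -0.54 and 0.44 in female KO and between -0.46 and 0.30 in male KO. For H3K4me3 the medians were -0.05 at female KO gains and -0.01 at male KO gains. H3K27ac covered a median of 90.2% of a gaining region in female KO, against 97.1% of regions that gained in neither line, and 60.8% in male KO, against 73.3%.

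In WT, the gaining regions had somewhat less H3K27ac and H3K4me3 than the others and lay much nearer to H3K27me3. WT H3K27ac had a median of 35 reads per kb at female KO gains and 32.3 at male KO gains, against 37.4 at regions that gained in neither line. WT H3K4me3 had 165 and 160 reads per kb, against 176. The share of eligible regions that gained H3K27me3 was 24.8% in female KO and 8.19% in male KO where WT H3K27ac was below 30 reads per kb, against 16.2 and 2.93% where it was 45.2 or more. By WT H3K4me3 density, 22.5% gained in female KO below 137 reads per kb and 14.5% at 210 or more, and 6.36 and 3.06% did in male KO. Width made less difference, with 19.1% gained below 6.20 kb and 21.6% at 10 kb or more in female KO.

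Distance to WT H3K27me3 separated the eligible regions more than any of these. Median distances to the nearest WT H3K27me3 region were 33.6 kb for female KO gains, 16.0 kb for male KO gains and 14.6 kb for gains of both lines, against 100 kb for regions that gained in neither. Of the 463 eligible regions within 5 kb of WT H3K27me3, 68.3% (63.9 to 72.3%) gained the mark in female KO and 27% (23.2 to 31.2%) in male KO. Of the 2216 regions at 200 kb or more, 9.48% (8.33 to 10.8%) and 1.58% (1.14 to 2.19%) did. The shares declined with every step between. With a margin of 5 kb free of WT H3K27me3 on both sides, 1399 female KO gains and 310 male KO gains remained in the count.

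**Figure D3:**
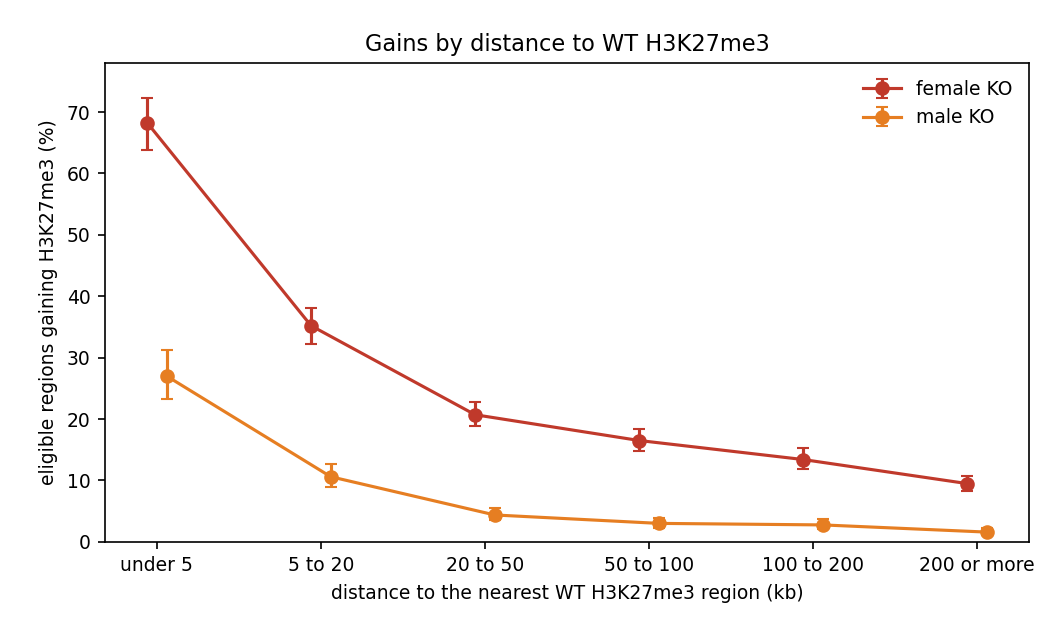
The share of eligible regions that gained H3K27me3 (vertical axis, percent, with 95% Wilson intervals) is drawn against their distance to the nearest H3K27me3 region of WT in kb. In female KO it declines to 9.48% at 200 kb or more, against 68.3% within 5 kb, and in male KO to 1.58%, against 27%.

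Eligible regions gained H3K27me3 less often than the shared H3K4me3 regions that lacked H3K27ac in WT. Of 1870 such regions without WT H3K27me3, 36.6% had the mark in female KO and 14.8% in male KO, against the 19.9 and 5.05% of eligible regions. WT H3K27ac regions away from H3K4me3 stood closer to the eligible regions, at 17.3% of 7847 in female KO and 4.64% in male KO, with a median width of 3.80 kb, against 7.80 kb for eligible regions. By length the order was the other way, since gained H3K27me3 covered 8.34% of the eligible regions and 13.1% of these H3K27ac regions in female KO, and 1.78 and 2.46% in male KO. The 8.34% in female KO stood against 9.06% of all autosomal bins that held no WT H3K27me3 up to the last listed region of each chromosome. The 1.78% in male KO stood against 5.43% of such bins.

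Gains were not spread evenly over chromosomes. In female KO the share of eligible regions that gained was highest on chromosome 4, with 133 of 488 regions (27.3%, 23.5 to 31.4%), and on chromosome 6, with 109 of 402 (27.1%, 23.0 to 31.7%). It was lowest on chromosome 13, with 39 of 357 (10.9%, 8.09 to 14.6%). In male KO chromosome 15 held the highest share, 44 of 378 (11.6%, 8.79 to 15.3%), and chromosome 3 the lowest, 10 of 461 (2.17%, 1.18 to 3.95%). Gained H3K27me3 over all bins differed between chromosomes too. Of all bins without WT H3K27me3, female KO H3K27me3 covered 14.1% on chromosome 4, 13.1% on chromosome 6 and 7.89% on chromosome 13, against 9.06% over all autosomes. It covered 15.6% on chromosome 11, where 25.1% of the eligible regions gained. Male KO H3K27me3 covered 6.96% of such bins on chromosome 15 and 2.03% on chromosome 3, against 5.43% over all. H3K4me3 reads, which can follow copy number, moved with part of this. Their median log2 ratio to WT, minus that of all eligible regions, was 0.65 on chromosome 4 and 0.34 on chromosome 6 in female KO, and 0.23 on chromosome 15 in male KO. On chromosome 14 it was 0.28 in female KO and 0.27 in male KO, where 15.6 and 5.40% gained. On chromosome 15 it was -0.21 in female KO, where 23.5% gained. The part of copy number in these shares was not tested.

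**Figure D4:**
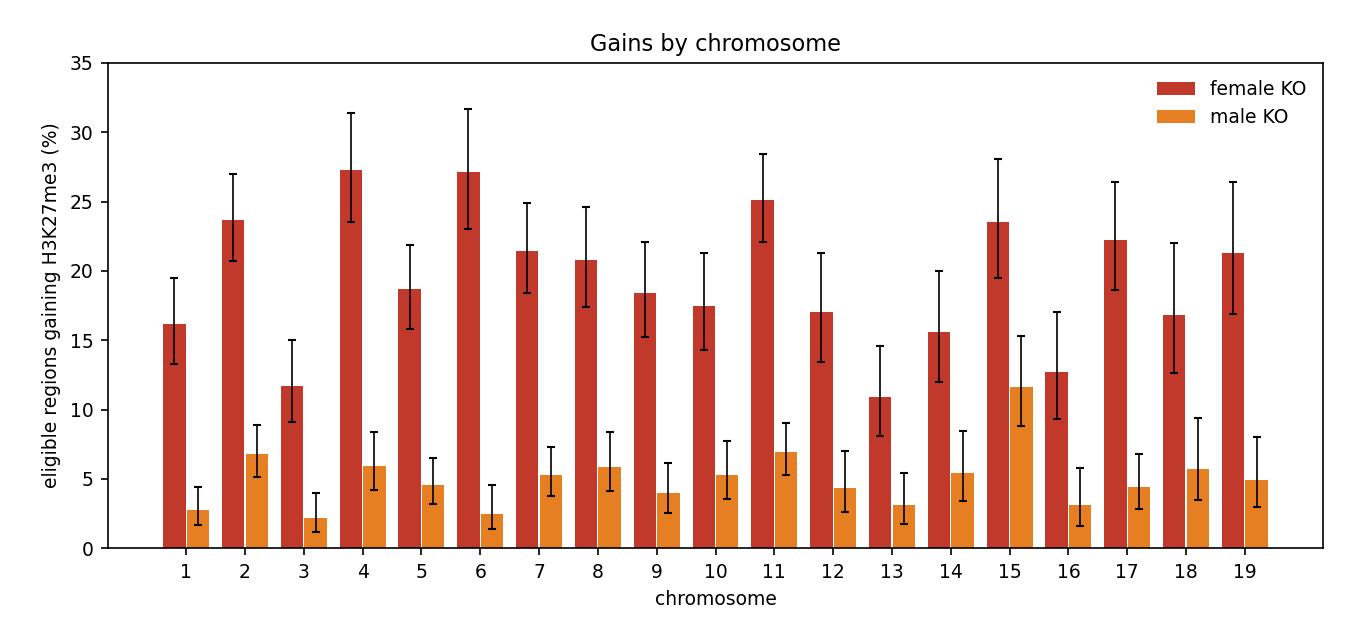
Bars give the share of eligible regions on each autosome that gained H3K27me3 (percent, with 95% Wilson intervals) in the female KO and the male KO line. Chromosomes 4 and 6 stand highest in female KO at 27.3 and 27.1%, and chromosome 15 in male KO at 11.6%.

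Single regions are given next by their mm9 position, with the length covered by a list in the region and the reads assigned to that length, where a region's count is spread evenly over its width. Reads are not scaled between libraries. At regions that gained in neither line, the median log2 ratio of H3K4me3 reads to WT was 0.31 in female KO and -0.87 in male KO. For H3K27ac reads, where both lists held the mark, it was 1.43 in female KO and 1.45 in male KO. Among gains of both lines, the largest length under H3K27me3 in both was at chr12:112678801-112690800, a region of 12.0 kb. H3K27me3 covered 12.0 kb in female KO with 694 reads and 11.8 kb in male KO with 276 reads, and none in WT. H3K27ac stayed listed in all lines, over 12.0 kb in female KO, 10.2 kb in male KO and 11.6 kb in WT. Its reads were 996 in female KO and 418 in male KO, against 674 in WT. Both KO ratios of H3K27ac reads lay below the medians over regions without a gain. H3K4me3 there was long only in female KO, at 11.6 kb, against 4.0 kb in male KO and 3.4 kb in WT, which lay at opposite ends of the region.

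At chr10:79952001-79963000, H3K27me3 covered all 11.0 kb in both KO lines, with 828 reads in female KO and 317 in male KO. H3K27ac was absent in male KO, and held 829 reads in female KO, against 245 in WT. H3K4me3 held 1417 reads in female KO and 313 in male KO, against 1001 in WT. At chr4:120413801-120424600 the lines were reversed. H3K27me3 covered all 10.8 kb in both KO lines, with 826 reads in female KO and 484 in male KO, while H3K27ac was absent in female KO and held 814 reads in male KO, against 131 in WT. This region also had the highest male KO density of the gained mark, 44.9 reads per kb. Its H3K4me3 was raised in male KO too, at 1358 reads, against 704 in WT and 615 in female KO. All 3 marks were thus high there in male KO, and the part of local copy number was not tested. The nearest WT H3K27me3 region lay 378 kb away. The 2 others were at chr4:114758801-114770400, where female KO lacked H3K27ac, and at chr12:86509601-86523400, where male KO lacked it. Of these 5 regions, 4 thus lacked H3K27ac in a single KO line, although both lines carried H3K27me3 over at least 10.8 kb.

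The 5 gains of the female KO line alone with the largest cover had H3K27ac listed in all 3 lines. At each, the female KO ratio of H3K27ac reads to WT lay below that line's median over regions without a gain. The first, at chr8:123006801-123025800, was under H3K27me3 over all 19 kb with 2179 reads, as part of a female KO H3K27me3 region of 338 kb. H3K27ac covered 16.6 kb with 1063 reads in female KO and 18.2 kb with 1571 reads in male KO, against 17.6 kb with 932 reads in WT. Both KO ratios of H3K27ac reads to WT lay below the medians over regions without a gain. H3K4me3 was shorter in the KO lines, at 8.4 kb in female KO and 13 kb in male KO, against 19 kb in WT. The other 4 were at chr2:26347801-26363600, chr8:97872201-97888200, chr11:103211401-103227800 and chr1:138024601-138039200, with 14.6 to 15.8 kb under H3K27me3 and 59.1 to 79.3 reads per kb. In each of the 4, H3K4me3 held fewer reads in female KO than in the WT library. At chr8:97872201-97888200 the difference was the widest, with 468 reads in female KO and 654 in male KO, against 2392 in WT. In the order given, the 4 held 542, 384, 1193 and 1024 H3K27ac reads in female KO. The WT counts of H3K27ac were 556, 899, 978 and 450.

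The 5 largest gains of the male KO line alone held 123 to 337 H3K27me3 reads each. At chr11:109575801-109586000, male KO H3K27me3 covered all 10.2 kb with 153 reads, or 15 reads per kb. H3K27ac covered 2.4 kb with 146 reads in that line, 10.2 kb with 870 reads in female KO and 3.8 kb with 107 reads in WT. At chr2:169456201-169466600 and chr3:30402201-30415600 male KO H3K27me3 covered 6.4 and 6.0 kb, with H3K27ac listed in all 3 lines. Male KO held 218 and 622 H3K27ac reads there, against 370 and 433 in WT. The 2 others of the 5 lay on chromosome 18, with 13.2 and 7.4 kb under male KO H3K27me3. At all 5, the male KO ratio of H3K27ac reads to WT lay below that line's median over regions without a gain.

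The widest gaining regions without H3K27ac in the line that gained show the other outcome. In all, 94 of the 1743 regions (5.39%) were of this kind, where gains of both lines had to lack H3K27ac in both. The widest, at chr7:147275201-147290200, measured 15 kb. H3K27me3 covered 9.4 kb in female KO with 316 reads. H3K27ac was absent in female KO and held 275 reads in male KO, against 655 in WT, and H3K4me3 held 137 reads in female KO and 177 in male KO, against 1017 in WT. At chr12:106095601-106106200, all 10.6 kb were under female KO H3K27me3, with H3K27ac absent in female KO and at 521 reads in male KO, against 459 in WT. That male KO ratio to WT lay below the line's median over regions without a gain. H3K4me3 held 187 reads in female KO and 400 in male KO, against 1280 in WT. The region at chr8:32216001-32226200 lacked H3K27ac in female KO and had more of it in male KO, 476 reads, against 58 in WT.

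Both KO lines lacked H3K27ac at the other 2 of the 5. At chr2:119146601-119155600, H3K27me3 covered all 9.0 kb in both KO lines, with 884 reads in female KO and 250 in male KO, and WT H3K27ac covered 4.6 kb with 110 reads. The nearest WT H3K27me3 region was 368 kb away. H3K4me3 stayed listed there, with 669 reads in female KO and 613 in male KO, against 1183 in WT. The male KO ratio to WT was close to that line's median over regions without a gain, and the female KO ratio lay below its own. At chr11:69757401-69767600, H3K27me3 covered 10 kb in female KO with 126 reads per kb and 5.2 kb in male KO with 25.1 reads per kb. WT H3K27ac was thin there, at 30 reads over 1.6 kb.

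**Figure D5:**
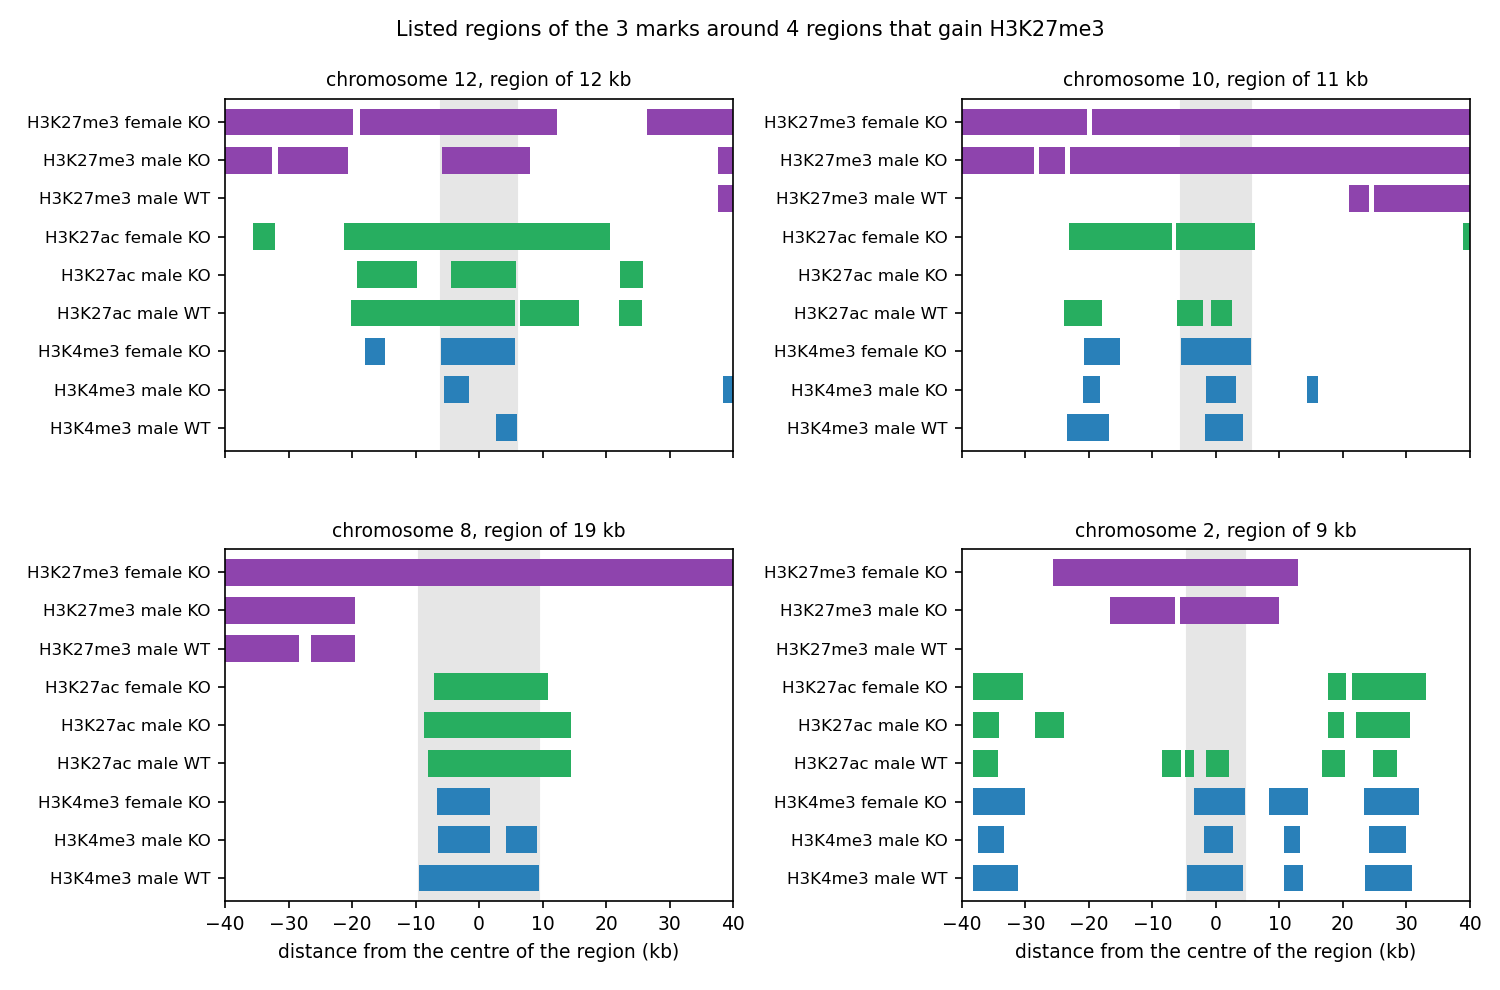
Each panel shows 40 kb on either side of the centre of a gaining region (grey band), with horizontal bars where a list holds the mark (H3K27me3 purple, H3K27ac green, H3K4me3 blue; rows are female KO, male KO and WT). H3K27me3 crosses the band in both KO lines on chromosomes 12, 10 and 2 and in the female KO line alone on chromosome 8, and H3K27ac is missing from the band in male KO on chromosome 10 and in both KO lines on chromosome 2.

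The highest densities of the gained mark in female KO came from H3K27me3 regions that reached partway into the promoter region. At chr6:29155201-29168600 only 0.4 kb was covered, at 158 reads per kb, from a female KO H3K27me3 region of 41.2 kb. At chr19:46376201-46386800, 4.4 kb were covered at 153 reads per kb, and at chr11:96834601-96843800, 3.2 kb at 151 reads per kb. WT H3K27me3 lay 8.80, 3.0 and 0.200 kb away from these 3, and H3K27ac was listed in all lines at each. In male KO, after the chromosome 4 region above, the densest was chr4:154732001-154738800, with 0.4 kb at 44.5 reads per kb. Next came chr9:63863401-63873400, with 5.0 kb at 41.4 reads per kb. At the first of these, male KO held 1329 H3K4me3 reads, against 685 in WT, and 469 H3K27ac reads, against 77. At the second, it held 889 H3K4me3 reads, against 1322 in WT, and 511 H3K27ac reads, against 165.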

How the data were processed

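The deposited files are lists of enriched regions, 1 per library, with a whole-number count per region. Bowtie 1.1.2, SICER 1 and the mm9 build are named, per the submitters' processing notes. SICER is a caller of broad regions that links enriched windows lying close together. The deposited lists have no header, and the last column was taken as a read count per region, the layout SICER writes. Control libraries, false discovery rates and sequencing totals are unknown: not given in the sources used here.

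Starts fell on a 200 bp grid, and lists were handled as 200 bp bins. H3K4me3 regions of autosomes were merged where they shared at least 1 bp, and overlaps were checked with bedtools 2.31.1. Coordinates are 1-based. Shares have 95% Wilson intervals, which cover counting error only. Work was done in Python 3.11.15, numpy 2.4.6, pandas 2.3.3 and matplotlib 3.10.9. The procedure was tested on simulated lists. Regions and lists were chosen with earlier results of these data known. Named regions are the 5 with the longest H3K27me3 cover in both KO lines (the smaller of the 2 lengths), the 5 in each line alone, the 5 widest without H3K27ac in the line that gained, and the 3 densest per line. The gene and promoter tables used here (GRCm38.p6) do not match the build, so no gene or sequence is given.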

Additional observations from a re-analysis of the deposited data

How the results depend on the processing

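Counts of gains depended on how much overlap was asked for and on list length. With at least 50% of the region under H3K27me3 there were 630 gains in female KO, 117 in male KO, 106 in both and 641 in either. With KO H3K27me3 lists cut to the WT covered length there were 728 in female KO, 208 in both and 838 in either. With WT H3K27ac over at least 50% they were 982, 252, 230 and 1004. Lists scaled by the density ratios and kept at the 5th percentile of WT reads per kb gave 1124 in female KO. Under the other alternatives female KO had 1393 to 1715 gains and male KO 310 (5 kb margin) to 435.

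The share of gains with H3K27ac was 81.3% in female KO and 77.8% in male KO with 50% under H3K27me3. It was 87.2 and 64.4% when H3K27ac had to cover 50% of the region (95.5 and 80.9% without a gain), and 55.3 and 77.9% with H3K27ac lists at the WT covered length (72.4 and 94.3% without a gain). Gains stayed below the regions without a gain in each of the alternatives run. The median cover was 92.9 and 84.1% in female and male KO with 50% asked for, and 41.7 and 35.5% with at least 1000 bp. In female KO it was 40% with scaled lists, 41.8% at the WT covered length, 38.6% above the median count and 39.4% with WT H3K27ac over 50%, and in male KO 34.4% with the 5 kb margin.

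With all H3K27me3 lists at the WT covered length, female KO over male KO gave 646 of 9436 regions and male KO over female KO 212 of 8957. Female KO over WT gave 728 of 8610, and WT over female KO 206 of 8957. With 50% under H3K27me3 these pairs gave 625 (6.78%), 19 (0.248%), 630 (7.32%) and 23 (0.300%). Male KO over WT gave 117 (1.36%) and WT over male KO 76 (0.824%). Both were chosen after seeing the data. Of 130 recomputed values, 43 moved and 87 did not. Of 25 named regions, 19 to 25 still gained under each alternative. The reads in the WT H3K27me3 list limit every gain: a region absent from that list may hold the mark below its threshold. No paired analysis was possible because each group has 1 library.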
